A study of Mus musculus with 8 samples.

Results

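Transcripts of 9 megakaryocyte and platelet genes were examined in MPPs, the multipotent progenitors of the bone marrow, of mice. The genes were Pf4, Itga2b, Gp1bb, Gp9, Vwf, Selp, Plek, Rab27b and Treml1. They were chosen by name as genes used to describe megakaryocyte priming, 9 of the 37980 gene rows in the table, by a rule that uses no measured value, although earlier results of these data were known when the rule was set. The study asked how the NUP98-HOXA10hd fusion (NA) alters MPPs, and RNA was sequenced from 4 NA and 4 wild-type (WT) aliquots of 1000 sorted cells each. In NA, the homeodomain of HOXA10, which binds DNA, is fused to a portion of the nucleoporin NUP98. All cells were sorted from C57BL/6 bone marrow by the same surface phenotype, Lin-CD48-ckit+Sca1+CD135+CD150-. The NA mice carried the NA LSL/+ allele, which expresses the fusion from the Rosa26 locus once Cre has removed a stop, together with Vav-Cre, which is active in blood cells. The WT group was labelled wild type, and neither an age, a sex nor a Cre allele is given for it in the labels. Libraries carry the name of their group and a number (NA1 to NA4 and WT1 to WT4). Nothing states that libraries came from separate mice, so p-values measure the spread between these libraries, which may be technical.

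Megakaryocytes are the bone marrow cells that shed platelets. Platelets carry adhesion receptors, activation receptors, granules filled with clotting proteins and chemokines, and the machinery that releases those granules. Some of these genes are already transcribed at low levels in stem and progenitor cells. This is called megakaryocyte priming and is best known from CD150-positive stem cells, a population that the present gate leaves out. CD135-positive progenitors are known for low megakaryocyte output.

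Of the 9 genes, Plek was higher in NA MPPs and Selp was lower, while no difference passed the test for Pf4, Itga2b, Gp9, Vwf and Rab27b. Gp1bb and Treml1 were too low to be tested. Plek encodes pleckstrin, a protein kinase C substrate of platelets and leucocytes that takes part in granule release. Selp encodes P-selectin, an adhesion molecule stored in platelet granules and also made by endothelial cells. The transcription start regions of both genes are shown because these were the genes that differed. Each is the 250 bases before the RefSeq start on GRCm38.p6, on the gene's own strand, and neither holds an annotated exon. The Plek start lies within the span that GENCODE gives the gene, which reaches further upstream. Both strands were searched for AGATAA (the GATA motif), AGGAAG and CCGGAA (ETS motifs) and TGACAG (a MEIS motif), and matches are in capitals.
Plek, chr11:17008719-17008968, minus strand: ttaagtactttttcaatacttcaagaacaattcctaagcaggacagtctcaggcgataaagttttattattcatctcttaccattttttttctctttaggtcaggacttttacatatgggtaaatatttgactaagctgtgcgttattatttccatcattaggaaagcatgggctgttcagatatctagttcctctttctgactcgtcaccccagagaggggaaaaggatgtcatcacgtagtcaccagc
Selp, chr1:164115014-164115263, plus strand: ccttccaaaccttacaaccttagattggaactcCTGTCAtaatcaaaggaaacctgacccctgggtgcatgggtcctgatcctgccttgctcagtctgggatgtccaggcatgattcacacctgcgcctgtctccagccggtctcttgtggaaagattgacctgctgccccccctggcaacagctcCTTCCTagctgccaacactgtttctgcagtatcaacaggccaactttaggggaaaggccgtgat
The Plek window held none of these letters on either strand. In the Selp window AGGAAG matched on the minus strand at 64 to 59 bases before the start, and TGACAG matched on the minus strand at 217 to 212 bases before it. Of 32851 promoter windows of this length, 29.5% held AGGAAG, 12.03% CCGGAA, 15.9% TGACAG and 9.99% AGATAA. Matches are letters in a window and not shown to be bound sites.

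Values are normalised counts, which the authors obtained by dividing RSEM counts by 1 size factor per library. Estimated depth was 3876906 to 4916987 reads, and NA4, WT2 and WT3 were shallower than the other 5 libraries. Library 4 of each group stood apart. Over 7238 genes its log2 values lay closer to the mean of the other 3 libraries of its group (SD of the difference 0.202 for NA4 and 0.145 for WT4) than those of any other library did (0.275 to 0.340). The sources do not settle whether NA4 and WT4 are independent of the other libraries of their group. They are counted as separate in n = 4 and in the p-values, and calls that rest on them are given with and without them. Xist was at 0.94 to 2.80 in NA and at 868.6 to 1285 in WT libraries, so genotype and sex cannot be told apart in this comparison. Hoxa10, part of which is in the fusion, was at 298.0 to 370.6 in NA and at 129.6 to 149.1 in WT libraries. Among the genes of the sorting markers, Kit and Flt3, at 1103 to 1498 in every library, were high and Slamf1, at 3.69 to 47.9, was low, as the gate states. Cd48 was at 12.2 to 22.4 in NA and at 34.2 to 83.8 in WT libraries. Ly6a, which encodes Sca1, was at 1221 to 1408 in NA and at 1482 to 1614 in WT libraries.

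NA was compared with WT for 11451 genes with limma on log2(normalised count + 1), and a gene was called at a Benjamini-Hochberg adjusted p below 0.05 over all of them. The test called 17.9% of all genes, 10.1% as higher and 7.87% as lower in NA. Of the 9 megakaryocyte genes, 7 passed the filter on low values and 2 of the 7 were called, 1 in each direction. Their median log2 fold change was 0.13, beside -0.011 over all genes tested. The groups did not overlap for 2 of the 7, beside 22.0% of all genes tested. Without NA4 and WT4, 1 of the 7 was called, Plek, beside 4.58% of all genes.

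**Figure D1:**
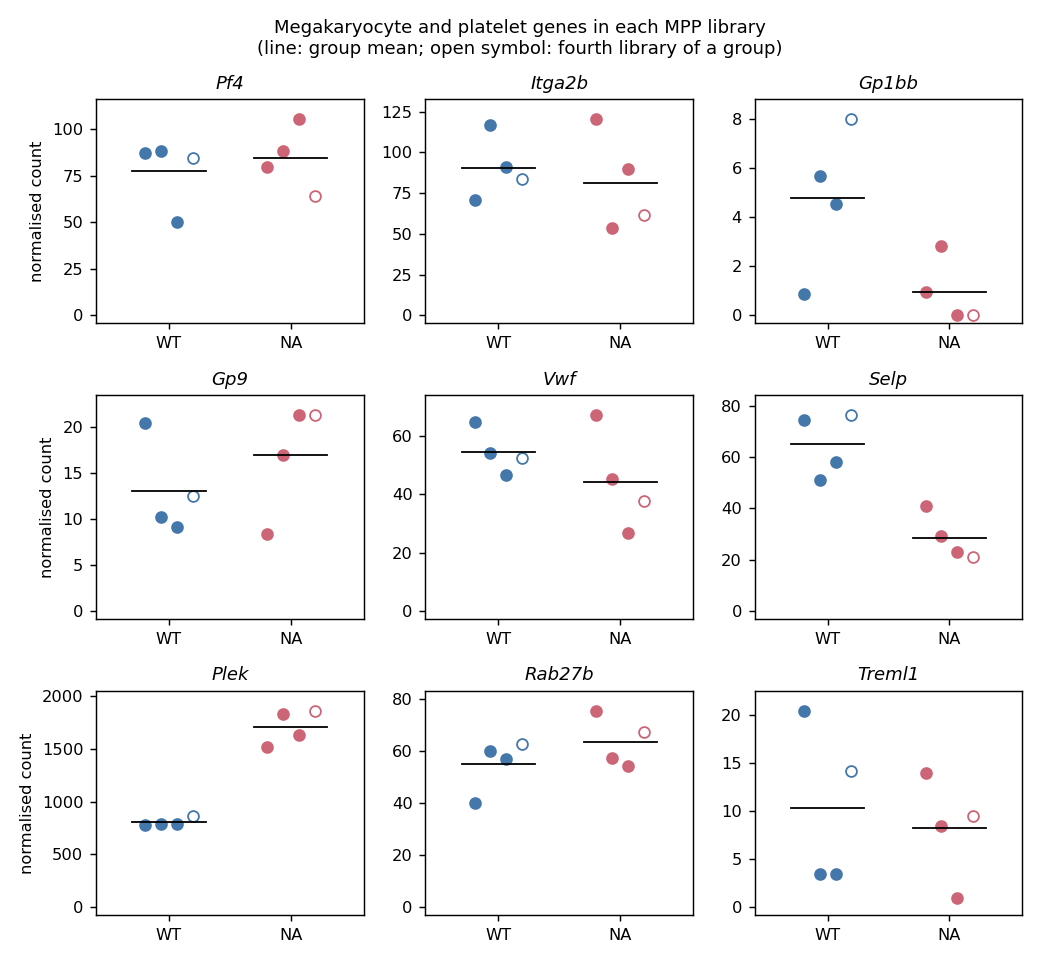
Normalised counts (vertical axis, from just below 0, a different scale in each panel) of the 9 genes in the 4 WT and 4 NA libraries. Points are libraries in order of their number, open circles are NA4 and WT4 and lines are group means; Plek lies higher and Selp lower in all NA libraries than in any WT library, and the groups overlap for the other 7 genes.

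Plek (ENSMUSG00000020120, chr11:16971206-17052381, minus strand, GRCm38) was at 1514, 1830, 1633 and 1859 normalised counts in NA1 to NA4. It was at 780.3, 791.6, 787.9 and 864.7 in WT1 to WT4. All 4 NA libraries lay well above the highest WT library, WT4. The means were 1709 ± 164 in NA and 806 ± 39.3 in WT (SD, n = 4 each), a ratio of 2.12. The log2 fold change was 1.08 (SE 0.0881, 95% confidence interval 0.89 to 1.27, limma adjusted p = 2.58e-06). Without NA4 and WT4 it was 1.07 (limma adjusted p = 0.00011). The coefficient of variation was 9.61% in NA and 4.88% in WT, where counting alone would give 2.41% and 3.51%. Plek shares exonic positions with Cnrip1 on the opposite strand, and the strand setting of the counting is not given in the sources used here. Cnrip1 lay between 345.3 and 419.3 in NA and between 364.9 and 459.8 in WT libraries, groups that overlap.

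Selp (ENSMUSG00000026580, chr1:164115264-164150026, plus strand) was at 41.1, 29.1, 23.1 and 21.3 normalised counts in NA1 to NA4. It was at 74.6, 51.0, 58.1 and 76.4 in WT1 to WT4. Every NA library was below every WT library, with NA1 the nearest to the WT range. The means were 28.6 ± 8.95 in NA and 65.0 ± 12.5 in WT (SD, n = 4 each), 2.27 times higher in WT. The log2 fold change was -1.18 (SE 0.283, 95% confidence interval -1.79 to -0.58, limma adjusted p = 0.0111). Of the 8 fits that left out 1 library, the one without WT4 lost the call (-1.10, limma adjusted p = 0.0517), and the one without NA4 kept it (-1.06, limma adjusted p = 0.0445). Without both it was -0.98 (limma adjusted p = 0.158). In bulk libraries, fewer cells with a transcript and less of it per cell cannot be told apart. Exons of Selp share positions with the antisense transcripts Gm16548, at 2.36 to 31.7 in NA and 9.06 to 21.6 in WT libraries, and Gm16587, at 0 to 8.27 in NA and listed at 0 in all WT libraries.

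Markers of endothelial cells, which also make P-selectin, moved in the same direction as Selp in part. Of 12 endothelial markers, 7 were tested, 3 were lower and 0 were higher in NA by limma, also at an unadjusted p below 0.05. That was 42.9% called, beside 17.9% of all genes tested and 7.87% lower. The 3 were Tek, the angiopoietin receptor, at -0.91 on the log2 scale (limma adjusted p = 0.0128), Egfl7, a secreted vascular factor, at -0.65 (limma adjusted p = 0.0052), and Eng, a coreceptor for TGF-beta, at -0.42 (limma adjusted p = 0.0185). The highest value was that of Pecam1, at 0.39 (limma adjusted p = 0.338). The median of the 7 was 0.08, and the summed level of the list was 1749 to 1935 in NA and 1934 to 2278 in WT libraries. The endothelial cadherin Cdh5 and the transcription factor Sox17 were listed at 0 in all 8 libraries. The call of Eng was lost without NA4 (-0.36, limma adjusted p = 0.0705) and without WT2 (-0.36, limma adjusted p = 0.0510), and only Tek of the 3 was called without NA4 and WT4. The part of such cells in the Selp result was not tested.

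The other granule cargo genes among the 9 did not differ by the test. Pf4 (ENSMUSG00000029373, chr5:90772435-90773383, plus strand) encodes platelet factor 4, a chemokine of the alpha granule. It was at 79.4, 88.4, 105.3 and 63.8 normalised counts in NA1 to NA4 and at 87.0, 88.3, 50.1 and 84.3 in WT1 to WT4. The lowest value was in WT3 and the highest in NA3, and the groups overlapped. The means were 84.2 ± 17.3 and 77.4 ± 18.3 (SD, n = 4 each), and the log2 fold change was 0.13 (95% confidence interval -0.38 to 0.64, limma adjusted p = 0.736). Its sign turned without WT3, to -0.06. Vwf (ENSMUSG00000001930, chr6:125546774-125686679, plus strand) encodes von Willebrand factor, the large protein that tethers platelets to a damaged vessel wall. It was at 67.2, 45.1, 26.8 and 37.8 in NA1 to NA4 and at 64.8, 54.4, 46.7 and 52.4 in WT1 to WT4. Of the NA libraries, 3 were below the WT range and NA1 was above it. The log2 fold change was -0.36 (95% confidence interval -0.98 to 0.25, limma adjusted p = 0.407).

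Rab27b encodes a small GTPase that docks platelet granules for release. It was at 75.6, 57.3, 54.5 and 67.3 in NA1 to NA4 and at 40.0, 60.0, 56.9 and 63.0 in WT1 to WT4. The ranges overlapped, with WT1 lowest and NA1 highest. The log2 fold change was 0.22 (95% confidence interval -0.28 to 0.72, limma adjusted p = 0.551).

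The adhesion receptors among the 9 were Itga2b, Gp9 and Gp1bb. Itga2b (ENSMUSG00000034664, chr11:102453297-102470122, minus strand) encodes the alpha chain of the platelet fibrinogen receptor, known as CD41. It was at 120.4, 53.6, 89.6 and 61.4 in NA1 to NA4 and at 71.0, 116.6, 91.1 and 83.5 in WT1 to WT4. Both groups spread over about the same range. The log2 fold change was -0.20 (95% confidence interval -0.76 to 0.35, limma adjusted p = 0.624). Gp9 (ENSMUSG00000030054, chr6:87778072-87779768, plus strand), a subunit of the receptor for von Willebrand factor, was at 8.40, 16.9, 21.2 and 21.3 in NA1 to NA4 and at 20.4, 10.2, 9.11 and 12.4 in WT1 to WT4. NA1 was the lowest library of all, and every WT library lay within the NA range. The log2 fold change was 0.34 with a wide 95% confidence interval of -0.62 to 1.30 (limma adjusted p = 0.637), which includes 2-fold differences upwards.

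Gp1bb (ENSMUSG00000050761, chr16:18620317-18622403, minus strand) encodes another subunit of that receptor. It was at 0.93, 2.82, 0 and 0 in NA1 to NA4 and at 0.89, 5.66, 4.55 and 7.99 in WT1 to WT4. These values stand for 1, 3, 0 and 0 estimated reads in NA and 1, 5, 4 and 9 in WT, so the gene was near the limit of detection and no fold is given. With all 17710 genes above 0 in the test, its limma adjusted p was 0.144. Gp1bb shares exonic positions with Sept5 on the same strand, and the counting could split reads between them. Sept5 was at most 2.36 in any library. Treml1 (ENSMUSG00000023993, chr17:48359916-48367176, plus strand), a receptor of platelet granule membranes that appears on activated platelets, was at 14.0, 8.46, 0.92 and 9.45 in NA1 to NA4. It was at 20.4, 3.40, 3.42 and 14.2 in WT1 to WT4. The groups overlapped widely, and without the filter its limma adjusted p was 0.850.

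**Figure D2:**
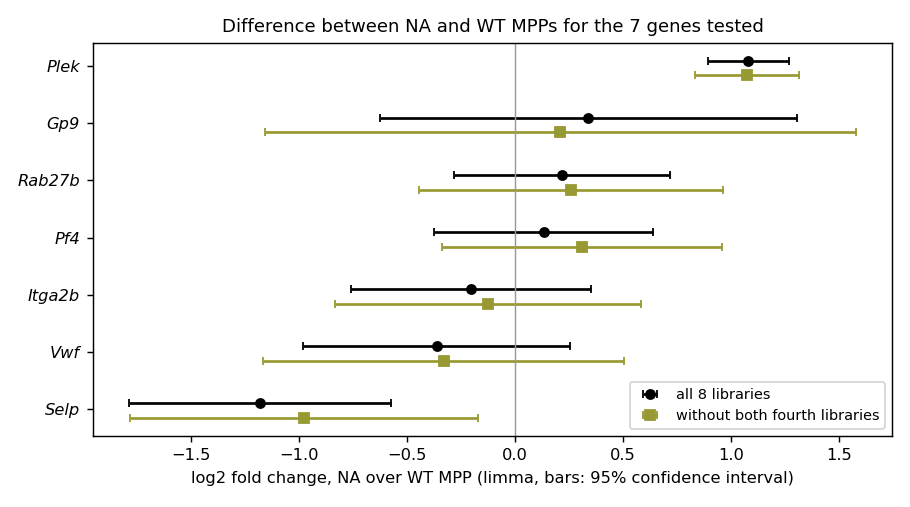
Log2 fold change of NA over WT MPPs (horizontal axis) for the 7 tested genes, with 95% confidence intervals from limma, in all 8 libraries (black circles) and without NA4 and WT4 (olive squares). The interval of Plek stays above 0 in both, at 1.08 and 1.07, and Selp lies at -1.18 and -0.98, where the second value did not pass the adjusted threshold.

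Levels were compared between genes only per kb of the longest protein-coding transcript. Over all 8 libraries Plek was highest with 306.8 normalised counts per kb, followed by Pf4 with 137.4. Plek exceeded Pf4, and Pf4 exceeded Itga2b, without overlap between their ranges over libraries. Itga2b followed with 25.0, Gp9 with 17.0, Selp with 13.6, Rab27b with 8.61, Treml1 with 7.52, Vwf with 5.59 and Gp1bb with 1.37 normalised counts per kb. From Itga2b downwards each gene's range over the libraries overlapped that of the next. Vwf was still above Gp1bb in all 8 libraries, whereas the other neighbours from Itga2b to Vwf kept their order in only 4 to 6 of the 8. Itga2b, at 15.6 or more, did not overlap Rab27b, at 11.0 or less. Tubb1, the beta-tubulin of the platelet rim, was listed at 0 in all 8 libraries.

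**Figure D3:**
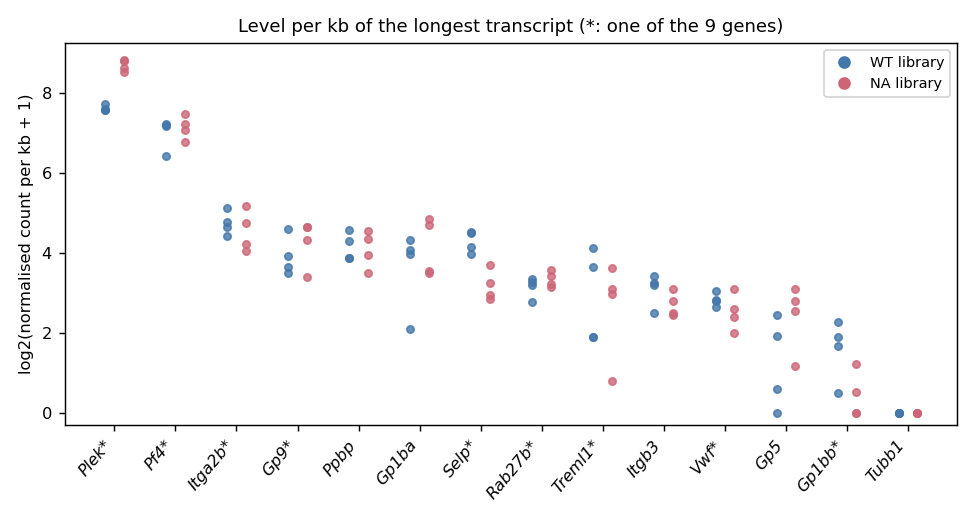
Level per kb of transcript, as log2(normalised count per kb + 1) (vertical axis), of the 9 genes (asterisks) and of partner genes in each WT (blue) and NA (red) library. Plek and Pf4 lie above the other genes in every library, and Tubb1 is at 0 in all 8.

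Partner genes of the 9 gave no call. Itgb3, whose product pairs with the Itga2b chain in the fibrinogen receptor, had means of 33.0 in NA and 45.2 in WT (log2 fold change -0.42, limma adjusted p = 0.362). Gp1ba, which encodes the ligand-binding chain of the receptor that holds Gp9 and Gp1bb, averaged 50.3 ± 25.2 and 36.1 ± 18.8 (SD, n = 4 each), and its log2 fold change was 0.57 (limma adjusted p = 0.460). Gp5, the remaining subunit, averaged 10.8 and 4.28 and was not tested. Ppbp, a granule chemokine encoded next to Pf4, averaged 18.2 and 18.7 (log2 fold change -0.06, limma adjusted p = 0.930).

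The genes of the wider megakaryocyte and platelet programme were grouped into 6 lists with 111 genes, 102 of them outside the 9. Of these 102, 78 were tested, 11 were higher and 7 lower in NA (23.1% called, beside 17.9% of all genes), with a median log2 fold change of 0.06 beside -0.011 over all genes. With the 9 included, 85 were tested and 20 called (23.5%), 12 higher and 8 lower. When libraries were scaled to equal totals instead, the split was 7 higher and 10 lower. Of the 20 calls, 9 remained without NA4 and WT4, among them Itgb1, Cd9, Thbs1, Plek, Nbeal2, Fli1, Lmo2 and Mef2c. With voom weights, a limma variant chosen after seeing the data, the counts of calls in each direction were as given here for the 9 genes and for every list.

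Of the transcription factors of megakaryocytes, 6 of 20 tested were higher (30.0% called, beside 17.9% of all genes in either direction and 10.1% higher) and 0 lower by limma, with 9 higher and 2 lower at an unadjusted p below 0.05, and the median log2 fold change was 0.22. Fli1, an ETS factor needed for megakaryocyte maturation, was at 396.7, 484.1, 449.6 and 535.0 in NA1 to NA4 and at 241.5, 219.7, 225.4 and 256.6 in WT1 to WT4. All NA libraries were above all WT libraries, and the log2 fold change was 0.98 (limma adjusted p = 0.000108). Lmo2, a bridging protein of the GATA and TAL1 complex, averaged 12340 and 8230 (0.58, limma adjusted p = 4.52e-05). Also higher were Mef2c, Cbfb and Gata2, with log2 fold changes of 0.49, 0.50 and 0.33 (limma adjusted p = 0.00222, 0.0259 and 0.0275). Not called, among others, were Nfe2, at 0.13 (limma adjusted p = 0.338), and Gfi1b, the list's lowest at -0.48 (limma adjusted p = 0.0979). Gata1 was too low to be tested, at 3.7 to 9.3 in NA and 0 to 18.2 in WT libraries. The call of Gata2 was lost without NA2, NA4, WT1 or WT4 (0.26 to 0.37 over the 8 fits that left out 1 library) and that of Cbfb without NA2, NA4, WT2 or WT3 (0.40 to 0.59). With libraries scaled to equal totals, 4 were higher, with Fli1, Lmo2 and Mef2c among them, and 1, Ldb1, was lower.

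Of the adhesion receptors, 6 of 9 were tested, 1 was higher (16.7% called, beside 17.9% of all genes) and 0 were lower by limma, also 0 at an unadjusted p below 0.05. The 1 was Itgb1, a beta chain shared by many integrins, at 397.7 to 533.0 in NA and 190.1 to 260.5 in WT libraries (log2 fold change 0.996, limma adjusted p = 0.00019). Itga2, of the same list, was at 0.92 in NA3 and at 0 in every other library. Of the activation receptors, 9 of 20 were tested, 2 were higher (22.2% called) and 0 were lower by limma, with 1 lower at an unadjusted p below 0.05. Cd9, a tetraspanin of platelets and stem cells, was at 417.3 to 592.9 in NA and 237.8 to 316.0 in WT libraries (0.88, limma adjusted p = 0.000554). F2r, a thrombin receptor, averaged 158 and 109 (0.53, limma adjusted p = 0.0307), a call that was lost in 5 of the 8 fits that left out 1 library: those without NA2, NA4, WT1, WT3 or WT4, with values of 0.46 to 0.60 over the 8 fits. The collagen receptor gene Gp6, Cd226 and Ly6g6f were listed at 0 in all 8 libraries.

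Granule cargo genes had 12 of 18 tested and 3 lower, Selp among them. That was 25.0% called, beside 17.9% of all genes tested and 7.87% lower. By limma 0 were higher, with 1 higher at an unadjusted p below 0.05. Of the 3, only Thbs1 was called without NA4 and WT4. Thbs1, the matrix protein thrombospondin, was at 29.9, 58.3, 92.3 and 73.2 in NA1 to NA4 and at 168.7, 479.0, 235.7 and 305.4 in WT1 to WT4. Every NA library was below every WT library, and the log2 fold change was -2.22 (limma adjusted p = 0.000556). Cd63, a membrane protein of dense granules and lysosomes, averaged 695 and 911 (-0.39, limma adjusted p = 0.00701), a call that was lost without NA4 and WT4 (limma adjusted p = 0.0769). The median of the list was 0.03, and F13a1, a clotting factor subunit, was listed at 0 throughout.

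Of the genes for granule formation and release, 22 of 23 were tested, 2 were higher and 2 lower, a share of 18.2% that is near the 17.9% of all genes. The higher genes were Plek and Snap23, a membrane fusion protein, with 524 and 402 (0.38, limma adjusted p = 0.0224). The lower genes were Nbeal2, which alpha granules need to form, with 420 and 602 (-0.52, limma adjusted p = 0.00267), and Stxbp2, a syntaxin-binding protein, with 475 and 653 (-0.47, limma adjusted p = 0.0149). The call of Snap23 was lost without NA4, WT2 or WT4, at log2 fold changes of 0.35, 0.34 and 0.38, and that of Stxbp2 without NA4, at -0.41. The list's median was -0.14.

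Among genes of the platelet cytoskeleton and of integrin activation, 16 of 20 were tested, 1 was higher and 3 were lower (25.0% called, beside 17.9% of all genes), with a median of -0.08. With the trend on GC content removed, 1 of the 4, Flna, was still called. The higher gene was Rap1b, a small GTPase that activates integrins, with 2174 and 1681 (0.37, limma adjusted p = 0.0472). The lower genes were Flna, an actin crosslinker, with 607 and 874 (-0.53, limma adjusted p = 0.00589), Rasgrp2, the exchange factor that switches Rap1 on, with 185 and 249 (-0.43, limma adjusted p = 0.0378), and Rasa3, which switches it off, with 653 and 799 (-0.29, limma adjusted p = 0.0288). Leaving out 1 library at a time kept the call of Flna in all 8 fits, of Rasa3 in 3, of Rap1b in 2 and of Rasgrp2 in 1. The call of Rasa3 was lost without NA2, NA4, WT2, WT3 or WT4, that of Rap1b without NA2, NA3, NA4, WT1, WT3 or WT4, and that of Rasgrp2 in every fit that left out a library other than NA1. Over these fits the log2 fold change was 0.29 to 0.47 for Rap1b, -0.51 to -0.37 for Rasgrp2 and -0.32 to -0.27 for Rasa3. None of the 4 was called without NA4 and WT4, where limma called 0 genes of this list and gave 5 an unadjusted p below 0.05.

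**Figure D4:**
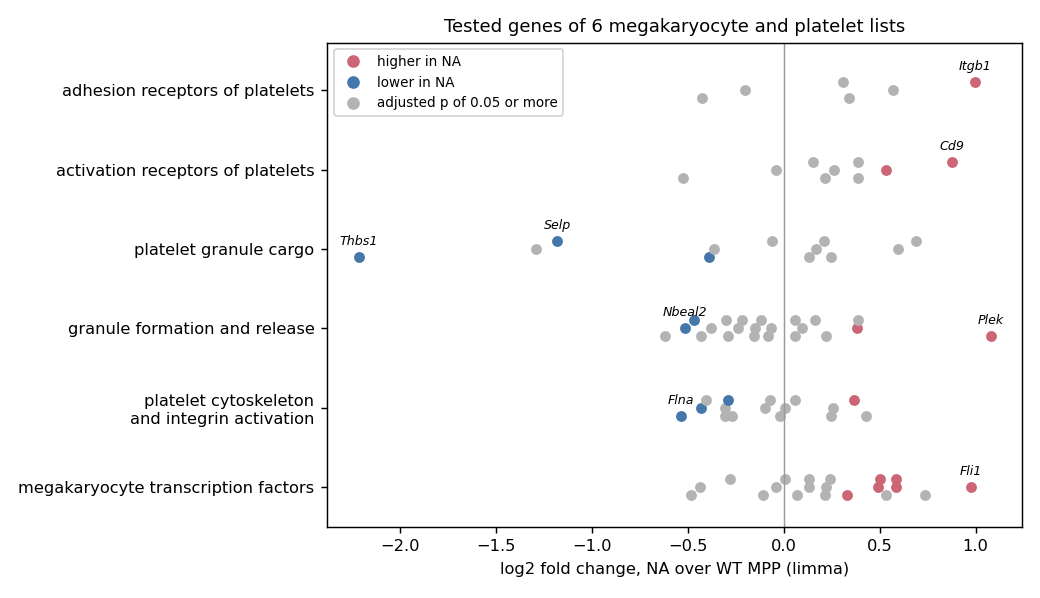
Log2 fold change of NA over WT MPPs (horizontal axis) for each tested gene of the 6 lists, with genes called higher in red, called lower in blue and the others in grey; vertical offsets within a list only separate points. The transcription factors hold 6 red points and no blue one, and Thbs1 lies furthest left at -2.22.

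Similarity of pattern was measured for Plek, Pf4, Itga2b and Rab27b, which averaged 50 or more normalised counts over the 8 libraries. The measure was the root mean square difference of centred log2 values over the 8 libraries. Of the tested genes with a symbol, Fli1 was nearest to Plek with a difference of 0.0765. Rbm25 with 0.106 and Kpna3 with 0.109 followed, where the values of Plek itself spread by 0.548. For Pf4, which spread by 0.308, the nearest were Ift27 with 0.128, Atg2a with 0.140 and Spg11 with 0.145. Itga2b spread by 0.382 and had Arl2 at 0.124, Gle1 at 0.152 and Wdr60 at 0.156. Rab27b spread by 0.247 and had Inpp4a at 0.0844, Mis18a at 0.107 and Zc3h15 at 0.107. These are descriptions over 8 libraries that share the 2 genotypes.

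Marker lists of other blood cells that the gate could hold were read from the same fit, and with all 8 libraries none had a gene called higher in NA. Over all genes tested, 17.9% were called, 10.1% as higher and 7.87% as lower in NA. These lists held 2 to 6 tested genes each, too few to compare their shares with those values. A call of 1 gene does not show that a whole cell type changed. Of 14 granulocyte and monocyte markers, 6 were tested and 3 were lower by limma (Mpo, Irf8 and Prtn3, with log2 fold changes of -1.50, -1.06 and -0.41), and the sum was 3156 to 3413 in NA and 3622 to 4751 in WT libraries. Elane was listed at 0. The call of Mpo was lost without NA2, NA3, WT2, WT3 or WT4 (-1.80 to -1.25 over the 8 fits without 1 library), that of Irf8 without NA2, NA4, WT2, WT3 or WT4 (-1.21 to -0.82) and that of Prtn3 without NA2, NA4, WT2 or WT3 (-0.48 to -0.34), and none remained without NA4 and WT4. Of 10 B cell markers, 2 were tested and 1 was lower (Dntt, the lymphoid DNA polymerase, -2.53), with a sum of 158.9 to 266.0 in NA and 405.3 to 511.4 in WT libraries and with Pax5, Ms4a1 and Igll1 at 0. Of 8 T cell markers, 3 were tested and Lck was lower (-0.64, and a call lost without any 1 library other than NA3 or WT3, at -0.79 to -0.51), with a sum of 129.9 to 226.2 and 204.9 to 312.6 and with Cd3e, Cd3d, Cd3g and Cd8a at 0. Of 15 erythroid markers, 3 were tested and Hbb-bt was lower (-1.99), with sums of 4666 to 5356 and 4860 to 5119 and with Alas2 at 0. Of 8 mast cell and basophil markers, 2 were tested, with 0 called by limma and 1 (Srgn) at an unadjusted p below 0.05, and Fcer1a, Mcpt8 and Prss34 were at 0. Srgn and Cpa3, the tested genes of that list, had log2 fold changes of 0.21 (limma adjusted p = 0.107) and 0.75 (limma adjusted p = 0.449). Srgn was called higher without WT2 (0.29, limma adjusted p = 0.0319). The list's sums were 6475 to 7183 and 5048 to 6783. They were nearly all Srgn, which is also on the granule cargo list, at 6449 to 7148 in NA and 5028 to 6762 in WT libraries.

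All 14 long-term stem cell markers, Vwf among them, were tested, and 5 were called (35.7%, beside 17.9% of all genes). Hlf, a transcription factor of stem cells, was higher (0.93, limma adjusted p = 1.86e-06), as was Procr, a surface marker of stem cells (0.42, limma adjusted p = 0.00615). Tek, Robo4 and Ly6a were lower (-0.91, -0.45 and -0.28), and the call of Robo4 was lost without NA4 (-0.44), that of Ly6a without any 1 library other than NA3 or WT2 (-0.33 to -0.26). The summed level was 10770 to 11850 in NA and 9082 to 9349 in WT libraries. Hlf alone averaged 4185 in NA and 2198 in WT, and the median log2 fold change of the list was -0.05. Without NA4 and WT4, Hlf and Tek remained called. The part of any of these cell types in the Plek and Selp results was not tested.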

How the data were processed

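RNA of 4 NA and 4 WT MPP libraries was analysed. Per the labels, the authors' processing named bcl2fastq, RSEM, DESeq2 and the build mm10. Versions, annotation and strand use are not given in the sources used here. The deposited table carries raw counts in its name. Its values were nevertheless a normalised signal, since low values rose in steps of a fixed size in each library: the authors had divided RSEM counts by a size factor. Depth was estimated as the sum divided by the step. Positions, symbols and transcript lengths came from GENCODE M21 (GRCm38, the same assembly as mm10), and promoters from RefSeq GRCm38.p6. Of the 9 genes, 7 were matched there.

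limma 3.58.1 in R 4.3.3 was run with a mean-variance trend on log2(normalised count + 1), without covariates, for genes that reached 10 normalised counts in 4 or more libraries. The added 1 understates changes of low genes. The script was tested on simulated data. Coefficients of variation given for counting alone come from read numbers and cover counting error only, since amplified cDNA carries no molecular identifiers. Replicate numbers of both groups were not treated as pairs in the main fit.

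The 9 genes, taken by name, and all lists were chosen with earlier results of these data known. Named were the 9 genes, of each list up to 3 highest and 3 lowest called genes (or, with none called, up to 2 with the highest level), partners, sorting markers, Hoxa10 and, for the 9 genes at a mean of at least 50, the 3 nearest in pattern. Cnrip1, Xist, Mef2c, Cbfb, Gata2, Gata1, Nfe2, Gfi1b, Ldb1, Pecam1, Itga2 and genes listed at 0 were named after their values were seen. A few genes that this rule takes are not reported here.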

Additional observations from a re-analysis of the deposited data

Results flagged for a closer look

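Libraries far from the remaining 3 of their group were sought with Dixon's ratio of gap to range at its 95% limit. Of 118 groups of 4 libraries, 5 passed, where chance alone gives about 5.9. Of the 9 genes, Pf4 in WT3 was at 50.1, with the other WT libraries at 84.3 to 88.3. Plek in WT4 was at 864.7, with the others at 780.3 to 791.6, still below all NA libraries. The other 3 were Rasa3 in WT1 at 744.8 (others 813.2 to 820.9), Robo4 in WT3 at 363.2 (318.2 to 324.9) and Slamf1 in WT2 at 30.6 (16.9 to 18.2).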

How the results depend on the processing

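Plek kept its direction and call under every alternative other than the fit within the shallower libraries, which held 1 NA library against 2 WT libraries, so that the lone library is assumed to vary like the others. There limma called 4 genes in all (2053 in the full fit), 0 of the 9 genes and 0 genes of the 6 lists (1 and 20 at an unadjusted p below 0.05), and gave Plek 1.23 (adjusted p = 0.164), Selp -1.32, Pf4 -0.0607 and Ppbp 0.50. Within the 5 deeper libraries 599 genes, 1 of the 9 (Plek) and 7 list genes (20 in the full fit) were called, with Selp at -1.29, Itga2b at 0.11, Gp9 at -0.13 and Cpa3 at -0.18. Without NA4 and WT4 the counts were 524, 1 and 9, with Selp at -0.98.

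Leaving out 1 library at a time gave 1125 (without NA4) to 2176 (without NA3) called genes, 1 (without WT4) to 2 of the 9 genes, and 12 (without NA4) to 24 (without NA1) list genes. Log2 fold changes were then 1.04 to 1.14 for Plek, -1.36 to -1.06 for Selp and -0.0623 (without WT3) to 0.26 for Pf4. Ppbp lay between -0.219 (without NA2) and 0.135 (without NA1), with 0.08 without WT4, and Slamf1 between -1.09 (without NA2) and 0.0338 (without NA3). A mean of at least 50 as filter left 1 of the 9 called, since Selp was then not tested, and a fit without variance trend called 13 list genes. Equal totals gave 41.3% of calls as higher, beside 56.1%, and moved the median of all genes to -0.0793. With the trend on GC content removed, 1925 genes and 19 list genes were called, 15 of them among the 20. Plek and Selp kept their calls, while Snap23 (0.21), Rap1b (0.19), Rasgrp2 (-0.27), Rasa3 (-0.23), Mpo (-1.36), Irf8 (-0.94), Prtn3 (-0.20), Lck (-0.54), Eng (-0.26), Robo4 (-0.34) and Cbfb lost theirs.

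Correlations of deviations from the group mean were 0.0131 to 0.158 between libraries of the same number. Between libraries of different numbers they were -0.0943 to 0.101. NA1 and NA4 were closest to their own numbers, while NA2 was closest to WT4 and NA3 to WT2. These values do not settle whether the numbers pair the libraries. A replicate block gave 2004 calls. Voom weights, chosen after seeing the data, stood in for edgeR and DESeq2, which were not run because fractional assignments kept the values from being read as whole counts, and gave 2027 calls. At this depth Gp1bb, with 0 to 9 estimated reads per library, left little precision for a comparison.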
